A study of Mus musculus with 95 samples.

Results

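Glomeruli of diabetic db/db mice fed pioglitazone (db/db PIO) were compared with glomeruli of db/+ mice fed pioglitazone (db/+ PIO). The comparison took 12 of the 95 RNA-Seq libraries of the series, 6 from each group, chosen by the tissue, genotype and treatment in their titles. The series covered sciatic nerve, dorsal root ganglia, glomeruli and kidney cortex, and 2 further comparisons of 12 libraries each were set beside this one: db/db with db/+ glomeruli without drug, and db/db PIO with db/+ PIO cortex. All mice were males of the strain BKS.Cg-m +/+ Leprdb/J, were kept on a standard chow and were 16 weeks old when the tissue was taken. The db/db mice carry the leptin receptor mutation on both chromosomes and the db/+ mice on a single chromosome, so the db/+ group also holds a mutant copy, and the mutation is present in every cell rather than in the kidney alone. Pioglitazone was given in the chow at 15 mg/kg for 11 weeks, so the drug was shared by both groups and the comparison asks which differences between the genotypes were measured in its presence. The study's methods give 6 mice per group. The sources used here do not say how the glomeruli were isolated.

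The glomerulus is the filter of the nephron, a tuft of capillaries held by mesangial cells and wrapped by podocytes, with macrophages and dendritic cells in and around it. Loss of leptin receptor signalling in db/db mice causes overeating, obesity, insulin resistance and hyperglycaemia, and on the BKS background the mice develop albuminuria and mesangial expansion. Pioglitazone is an agonist of the nuclear receptor PPARG that improves insulin sensitivity and is known to act on adipocytes, macrophages and vascular cells. Bulk RNA from glomeruli sums all of these cells, so fewer cells of a type and less RNA per cell cannot be told apart in any value below.

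Levels are FPKM (sequenced fragments scaled to transcript length and to the mapped reads of the library) as the authors deposited them. Podxl, which encodes a podocyte surface protein, matched the tissue label: Podxl lay at 2058 to 2724 FPKM in db/db PIO and 2147 to 2795 FPKM in db/+ PIO glomeruli and was listed at 0 in all 12 cortex libraries. Other glomerular markers, Nphs1 and Wt1 (podocyte), Ehd3 (endothelium) and Itga8 (mesangium), were listed at exactly 0 in all 12 glomerular libraries, as were 22 of 31 podocyte genes examined. An entry of 0 was therefore read as missing and not as a level. Lepr itself was below the filter on low values (0.15 to 0.26 FPKM in db/db PIO and 0.21 to 0.47 FPKM in db/+ PIO) and was not tested, and the mutation is a splicing change that a gene-level value does not measure. In broad measures the groups overlapped: 7333 to 8367 genes above 0 in db/db PIO and 7739 to 8552 in db/+ PIO (p = 0.201, two-sided exact permutation test, n = 6 each), a summed FPKM of 129009 to 175226 in db/db PIO and 149630 to 177457 in db/+ PIO (p = 0.271), and 32.0 to 48.1% of filtered genes at 0 in db/db PIO and 29.9 to 43.1% in db/+ PIO (p = 0.361). The smallest p this test can give is 0.0022.

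In total, 358 of 4255 genes tested (8.41%) were differentially expressed genes (DEGs), by limma on log2(FPKM + 1) with a Benjamini-Hochberg false discovery rate (FDR) of 0.05. Of these, 180 (4.23% of genes tested) were higher and 178 (4.18%) were lower in db/db PIO than in db/+ PIO. The median log2 fold change over all genes tested was -0.03. These shares and this median are the background for each list count below. Rescaling the libraries by median of ratios gave 205 higher and 160 lower, and quantile normalization gave 239 higher and 78 lower, and every one of the 358 DEGs kept its sign in both, while 331 and 248 of them, in that order, were still past the threshold. DEGs had 15.4% of their entries at 0 in db/db PIO and 15.2% in db/+ PIO, and 110 of the 358 had a value in all 12 libraries. Entering each 0 as a level of 0 left 11 DEGs among 7041 genes, so the calls below hold for the values above 0 only. Where groups are said not to overlap, this describes the values of that gene. The share of all genes tested without overlap is not given, so a lack of overlap is no further support for a call.

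Genes of macrophages and antigen-presenting cells were lower in db/db PIO. Complement C1q, which macrophages make and which binds immune complexes and dying cells, fell in each of its chains, as did 3 of 5 MHC class II genes tested, which present peptides to T cells. C1qa (chromosome 4, 136451832 to 136454718, mm9) had a lowest, median and highest level of 0.56, 1.64 and 4.36 FPKM in db/db PIO, against 5.93, 8.19 and 25.2 FPKM in db/+ PIO. All 6 db/db PIO libraries lay below all 6 db/+ PIO libraries. The log2 fold change was -1.97 (SE 0.47, limma adjusted p = 0.00957). C1qb had 0.64, 2.91 and 5.45 FPKM in db/db PIO, against 8.29, 10.2 and 15.3 FPKM in the 5 db/+ PIO libraries with a value, again without overlap (log2 fold change -1.67, SE 0.35, adjusted p = 0.00485). C1qc, the remaining chain, had 0.40, 1.19 and 3.90 FPKM in db/db PIO, against 4.04, 4.96 and 5.97 FPKM in 4 db/+ PIO libraries (log2 fold change -1.28, adjusted p = 0.0241).

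Of 15 macrophage genes tested, 5 were lower and none was higher, beside a background of 4.18% lower, and 14 of the 15 had a fold change below 0. The median of the 15 was -0.85, against -0.03 over all genes. The other members past the threshold were Fcer1g, the shared signalling chain of Fc receptors, and Tyrobp, an adaptor of activating receptors on myeloid cells. Fcer1g had 5.71, 8.65 and 17.4 FPKM in db/db PIO, against 12.8, 15.6 and 28.0 FPKM in 5 db/+ PIO libraries (log2 fold change -0.85, adjusted p = 0.0304), and the groups overlapped. Tyrobp had 6.92, 9.16 and 16.2 FPKM in 5 db/db PIO libraries, against 17.3, 20.7 and 31.7 FPKM in db/+ PIO, without overlap (log2 fold change -1.08, adjusted p = 0.0419). The calls of C1qc, Fcer1g and Tyrobp were kept in 21, 19 and 13 of 24 fits that left out 1 library. Members that missed the threshold included Mmp12, the macrophage elastase, with a median of 0.19 FPKM in db/db PIO and 0.88 FPKM in db/+ PIO (log2 fold change -0.73, adjusted p = 0.0622), and Lyz1, a lysozyme, with 1.11 FPKM in db/db PIO and 2.46 FPKM in db/+ PIO (-0.72, adjusted p = 0.057). Cd14, a receptor for bacterial lipopolysaccharide, was the member with a fold change above 0, with 11.1 to 14.1 FPKM in db/db PIO against 5.63 to 11.1 FPKM in db/+ PIO (log2 fold change 0.35, adjusted p = 0.273).

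The summed level of the 6 macrophage genes with a value in every library was 13.9 to 17.4 FPKM in db/db PIO and 17.5 to 45.8 FPKM in db/+ PIO (p = 0.00216, exact permutation test, n = 6 each), and Cd14 made up most of the sum in db/db PIO. The 6 include C1qa, already a DEG in these libraries. In db/db PIO and db/+ PIO, the median of C1qa was 1.64 and 8.19 FPKM, and that of the sum 16.6 and 21.7 FPKM. The sum therefore adds no support beyond the call of C1qa. Of the defining markers, Itgam was listed at 0 in all 12 libraries, and Csf1r had a value in 2 db/db PIO and 3 db/+ PIO libraries, too few to test. The count of 5 was 3 without db/db PIO 3, 4 or 5 or db/+ PIO 1, 2 or 4, was 2 after quantile normalization and was 9 with a pseudocount of 0.1. Ly86, which encodes a partner of a Toll-like receptor relative on B cells and myeloid cells and was named after its values were seen, had 0.22 to 1.82 FPKM in db/db PIO and 1.85 to 8.02 FPKM in 5 db/+ PIO libraries (log2 fold change -1.28, adjusted p = 0.0214).

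MHC class II genes are transcribed in dendritic cells, B cells and activated macrophages, through a promoter module that includes the Y box bound by NF-Y. H2-Aa (chromosome 17, 34406276 to 34424772, mm9), the alpha chain of I-A, had a lowest, median and highest level of 2.55, 7.01 and 12.4 FPKM in db/db PIO, against 12.4, 16.5 and 39.9 FPKM in db/+ PIO. The highest db/db PIO library, replicate 2, just reached the lowest db/+ PIO library. The log2 fold change was -1.48 (SE 0.35, adjusted p = 0.00957). H2-Eb1, the beta chain of I-E, had 2.23, 6.15 and 12.1 FPKM in db/db PIO, against 14.7, 19.7 and 49.5 FPKM in 5 db/+ PIO libraries, with no overlap (-1.78, SE 0.50, adjusted p = 0.0288). H2-Ab1, the beta chain of I-A, had 4.74 to 21.1 FPKM in db/db PIO and 18.2 to 57.6 FPKM in db/+ PIO (-1.45, adjusted p = 0.0411), and its call was kept in 16 of 24 fits that left out 1 library.

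These 3 of 5 MHC class II genes tested were lower and none was higher (background 4.18% lower), and the median of the 5 was -1.45. Cd74, the invariant chain that accompanies class II molecules, had 8.91 to 64.7 FPKM in db/db PIO and 65.8 to 91.0 FPKM in the 3 db/+ PIO libraries with a value, and did not pass (log2 fold change -1.43, adjusted p = 0.123). The sum of H2-Aa and H2-Ab1 was 7.29 to 33.6 FPKM in db/db PIO and 31.1 to 97.5 FPKM in db/+ PIO (p = 0.00433, exact permutation test, n = 6 each). Both genes were already DEGs in these libraries, so the sum repeats their calls and adds no support. The sum of the whole list as deposited, zeros included, was 21.8 to 116.4 FPKM in db/db PIO and 60.3 to 163.6 FPKM in db/+ PIO (p = 0.0606, exact permutation test). The count of 3 was 1 without db/db PIO 4 or 5 or db/+ PIO 2, because H2-Eb1 and H2-Ab1 then missed the threshold. H2-Aa and H2-Eb1 each hold the letters of a Y box upstream of the start of transcription, and their promoters (a window of 300 bases around the start, RefSeq, GRCm38.p6) are printed to show it, in the direction of transcription, with the Y box letters CTGATTGG in capitals. H2-Aa lies on the minus strand at chr17:34287774-34288073 and H2-Eb1 on the plus strand at chr17:34305617-34305916.
H2-Aa: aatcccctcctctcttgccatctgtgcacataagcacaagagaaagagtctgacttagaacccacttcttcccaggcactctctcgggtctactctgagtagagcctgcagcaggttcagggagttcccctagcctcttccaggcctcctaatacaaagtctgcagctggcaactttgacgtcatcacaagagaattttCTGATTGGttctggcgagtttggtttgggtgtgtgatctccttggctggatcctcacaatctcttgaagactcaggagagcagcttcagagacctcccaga
H2-Eb1: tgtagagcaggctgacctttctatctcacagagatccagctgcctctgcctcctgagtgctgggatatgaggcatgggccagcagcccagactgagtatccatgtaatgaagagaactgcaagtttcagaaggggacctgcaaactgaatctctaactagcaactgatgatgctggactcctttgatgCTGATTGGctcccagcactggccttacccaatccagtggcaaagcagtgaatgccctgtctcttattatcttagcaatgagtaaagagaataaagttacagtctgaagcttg
The first base of the match lies at position -51 in H2-Aa and -62 in H2-Eb1. On either strand these letters occur in 4.1% of all 32851 RefSeq promoters of this length, in 6.82% of 2626 genes tested that have a promoter in the table, in 14.3% of 105 such genes lower in db/db PIO and in 4.96% of 121 such genes higher in db/db PIO. The shares are a description of the letters and no test was made on them.

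Genes induced by interferons were the next group that was lower in db/db PIO. Of 12 interferon-stimulated genes tested, 5 were lower (Ifi27l2a, Mx2, Oas1a, Rsad2 and Usp18) and none was higher, beside a background of 4.18% lower. The median was -0.74, against -0.03 over all genes. Ifi27l2a, a small mitochondrial and nuclear envelope protein gene, had the largest fall by the naming rule: 0.25, 3.21 and 7.69 FPKM (lowest, median, highest) in db/db PIO, against 20.9, 23.5 and 40.6 FPKM in the 4 db/+ PIO libraries with a value. The groups did not overlap, and the log2 fold change was -2.88 (SE 0.47, limma adjusted p = 0.00155). Oas1a, a sensor of double-stranded RNA, had 0.71, 1.19 and 1.43 FPKM in db/db PIO, against 3.86, 4.25 and 5.04 FPKM in 3 db/+ PIO libraries (-1.33, SE 0.18, adjusted p = 0.000335). The other db/+ PIO libraries, replicates 1 to 3, were listed at 0 for Oas1a. Usp18, which removes ISG15 from proteins and dampens interferon signalling, had 3.46, 4.62 and 5.64 FPKM in db/db PIO, against 7.62, 10.2 and 12.1 FPKM in 5 db/+ PIO libraries (-0.94, SE 0.20, adjusted p = 0.00464).

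Mx2, an antiviral GTPase, had 0.63 to 1.44 FPKM in 5 db/db PIO libraries and 1.66 to 2.71 FPKM in db/+ PIO (log2 fold change -0.70, adjusted p = 0.00983). Rsad2, which makes an antiviral nucleotide, had 4.57 to 5.24 FPKM in 3 db/db PIO libraries and 12.9 FPKM in replicate 1, against 9.18 to 23.8 FPKM in 5 db/+ PIO libraries (-1.27, adjusted p = 0.0483). The call of Rsad2 was kept in 11 of 24 fits that left out 1 library. Ifit1, which binds foreign RNA, did not pass, with 2.18 to 4.52 FPKM in db/db PIO and 3.84 to 8.95 FPKM in db/+ PIO (-0.66, adjusted p = 0.125). Isg15, the ubiquitin-like protein that Usp18 removes, had 9.75 to 15.1 FPKM in 4 db/db PIO libraries and 16.9 to 29.4 FPKM in 4 db/+ PIO libraries (-0.77, adjusted p = 0.187). The regulators Irf7 and Stat2 were listed at 0 in all 12 libraries. The count of 5 was 3 without db/+ PIO 4 or 6, was 8 in a fit of the PIO groups alone and was 2 of 6 genes tested where at least 5 values were required in each group.

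The promoters of Oas1a and Rsad2 are printed because they hold the letters of the interferon-stimulated response element, GAAA, any pair of bases and GAAA on either strand, which is the site of the STAT and IRF complexes (RefSeq, GRCm38.p6, in the direction of transcription, matches in capitals). Oas1a lies on the minus strand at chr5:120907476-120907775 and has 2 overlapping matches. Rsad2 lies on the minus strand at chr12:26456403-26456702, and its match is on the opposite strand.
Oas1a: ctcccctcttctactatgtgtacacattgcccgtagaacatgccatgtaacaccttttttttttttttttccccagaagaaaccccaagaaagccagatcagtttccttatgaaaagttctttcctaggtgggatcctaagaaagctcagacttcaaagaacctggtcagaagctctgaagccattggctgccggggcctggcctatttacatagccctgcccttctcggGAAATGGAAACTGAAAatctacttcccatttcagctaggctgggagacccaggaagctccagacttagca
Rsad2: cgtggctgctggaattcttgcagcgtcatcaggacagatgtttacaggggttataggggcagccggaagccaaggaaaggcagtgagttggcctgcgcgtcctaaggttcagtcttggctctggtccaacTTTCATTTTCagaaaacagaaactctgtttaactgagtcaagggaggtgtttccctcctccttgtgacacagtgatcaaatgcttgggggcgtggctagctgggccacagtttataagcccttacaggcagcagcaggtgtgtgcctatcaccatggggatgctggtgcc
The first match starts at position -20 in Oas1a and -120 in Rsad2. The letters occur in 3.44% of all promoters, in 3.69% of genes tested that have a promoter, and in 15 of the 20 interferon-stimulated genes with a promoter in the table. Among the 105 lower genes with a promoter they occur in 3 (Ebp, Oas1a and Rsad2), and among the 121 higher genes in 2. The lower genes as a whole thus had a share close to that of all genes tested.

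**Figure D1:**
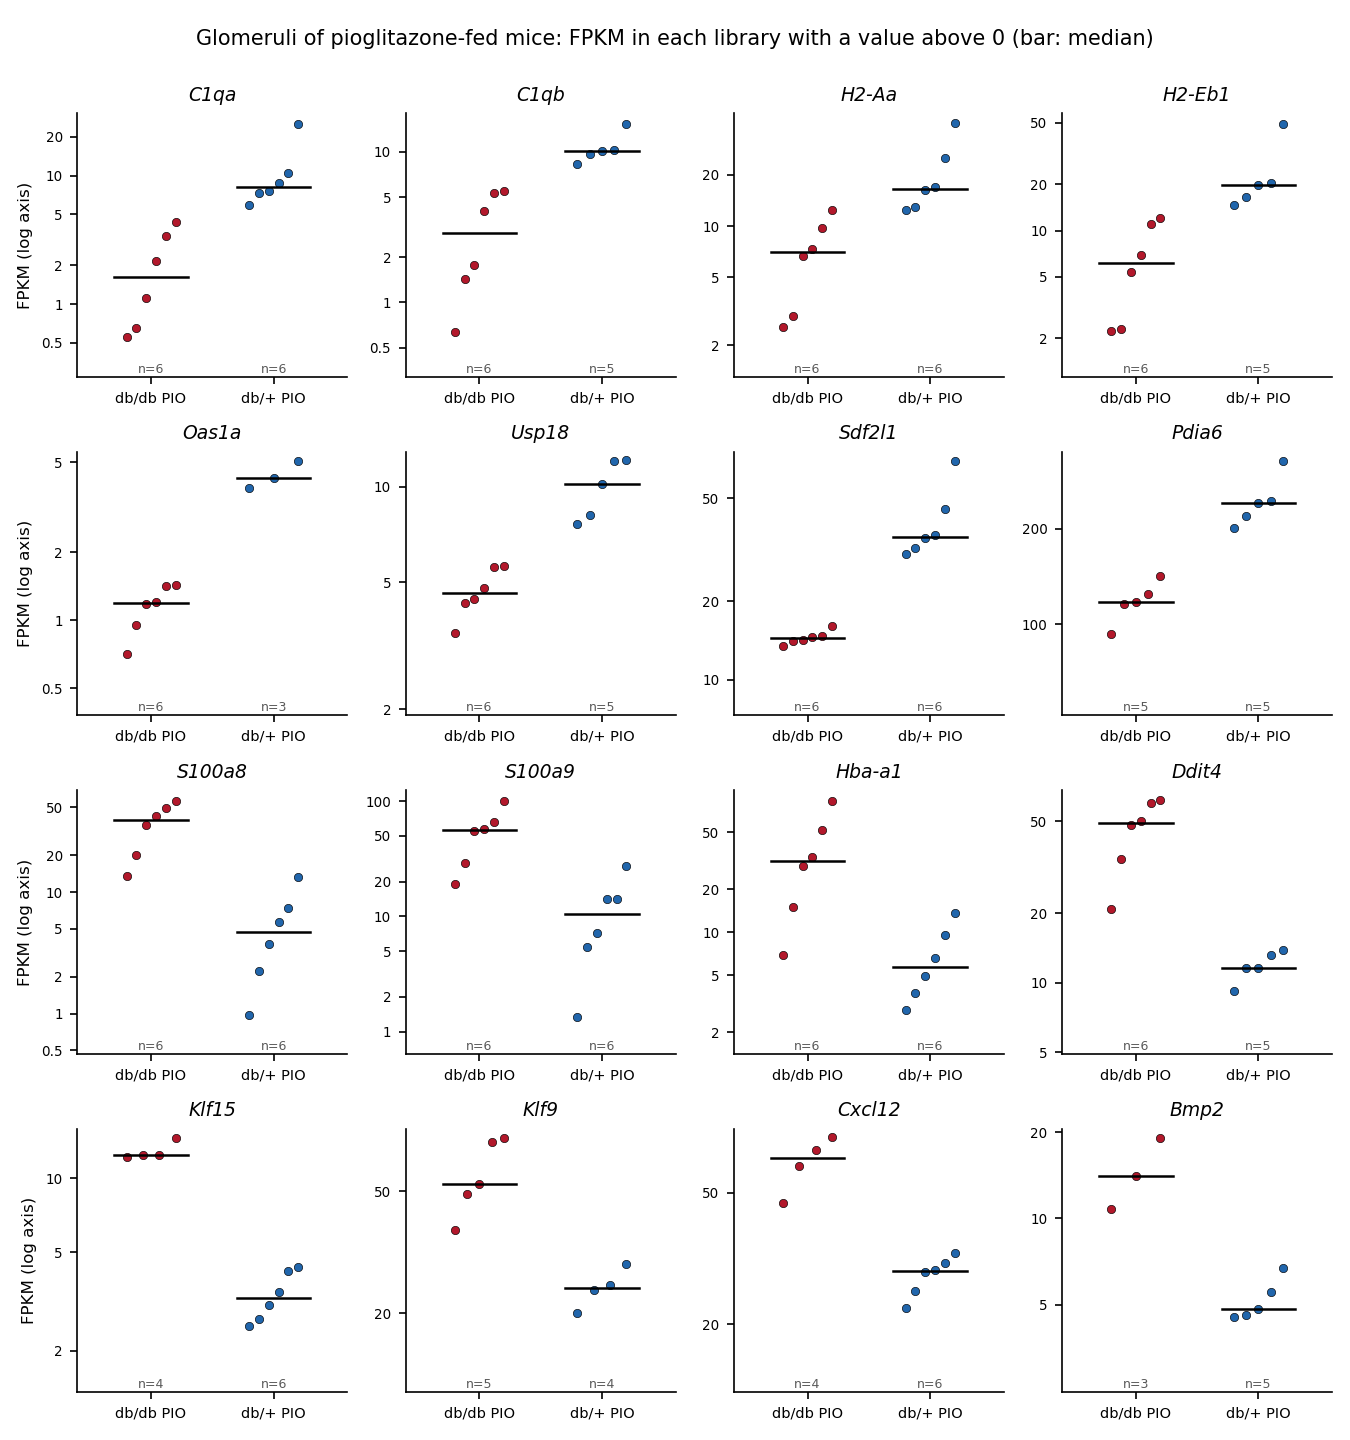
Level of 16 DEGs (FPKM, log axis) in each glomerular library with a value above 0, in db/db PIO (red, left) and db/+ PIO (blue, right); bars mark the median and n the libraries with a value. C1qa lies at 0.56 to 4.36 FPKM in db/db PIO and 5.93 to 25.2 FPKM in db/+ PIO, while S100a8 lies at 13.5 to 56.0 FPKM in db/db PIO and 0.97 to 13.3 FPKM in db/+ PIO.

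Some transcripts of circulating cells were higher in db/db PIO. S100a8 and S100a9 encode the subunits of calprotectin, which fill the cytosol of neutrophils. S100a8 had a lowest, median and highest level of 13.5, 39.0 and 56.0 FPKM in db/db PIO, against 0.97, 4.72 and 13.3 FPKM in db/+ PIO. All db/db PIO libraries lay above all db/+ PIO libraries, by a narrow margin (log2 fold change 2.64, SE 0.51, limma adjusted p = 0.00186). S100a9 had 19.3, 55.9 and 100.2 FPKM in db/db PIO, against 1.35, 10.6 and 27.3 FPKM in db/+ PIO, where the highest library lay above the lowest of db/db PIO (2.34, SE 0.49, adjusted p = 0.00386). Retnlg, another granulocyte gene, had 1.40 to 12.1 FPKM in db/db PIO and 1.16 to 3.56 FPKM in 5 db/+ PIO libraries (1.02, adjusted p = 0.0966). Of 4 neutrophil and mast cell genes tested, 2 were higher (background 4.23%) and none was lower. The sum of S100a8, S100a9 and Cxcr2, the neutrophil chemokine receptor, was 39.7 to 157.1 FPKM in db/db PIO and 2.47 to 41.0 FPKM in db/+ PIO (p = 0.00433, exact permutation test, n = 6 each), and nearly all of it was calprotectin, since Cxcr2 was at 0.33 to 1.11 FPKM in db/db PIO and 0.15 to 0.40 FPKM in db/+ PIO. The sum therefore repeats the calls of S100a8 and S100a9.

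Erythroid genes followed the same direction, with 3 of 4 tested higher (background 4.23%), none lower and a median log2 fold change of 1.44. Hba-a1, an alpha-globin gene, had 6.91, 31.3 and 82.9 FPKM in db/db PIO, against 2.83, 5.73 and 13.6 FPKM in db/+ PIO (2.03, SE 0.49, limma adjusted p = 0.0119). The groups overlapped, since the lowest db/db PIO level lay below the highest of db/+ PIO. Hba-a2, a near-identical copy whose reads cannot be assigned with certainty, had 6.18 to 51.3 FPKM in db/db PIO and 1.53 to 11.1 FPKM in db/+ PIO (1.89, adjusted p = 0.0156). Alas2, the erythroid enzyme of haem synthesis, had 0.58 to 5.39 FPKM in db/db PIO and 0.13 to 1.14 FPKM in db/+ PIO (1.00, adjusted p = 0.0339), and its call was kept in 17 of 24 fits that left out 1 library. The summed level of the 4 erythroid genes with values in every library was 14.2 to 141.1 FPKM in db/db PIO and 4.90 to 26.7 FPKM in db/+ PIO (p = 0.00866, exact permutation test, n = 6 each). It includes the 3 erythroid DEGs and so repeats their calls. The globin transcripts thus differed between the groups in the same direction as those of calprotectin. Whether both rose in the same libraries was not tested, nor was the part of blood left in the preparations. LOC100503686, an unannotated symbol with a wide spread, had 58.6 to 699.3 FPKM in db/db PIO and 25.2 to 127.9 FPKM in db/+ PIO (2.16, adjusted p = 0.0211, missed without db/db PIO 5).

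Of the list of heat shock and endoplasmic reticulum (ER) stress genes, Sdf2l1 and Hspb1 were lower in db/db PIO, and other genes of the ER are given beside them. Sdf2l1 (chromosome 16, 17130231 to 17132476, mm9), a component of the ER chaperone complex, had a lowest, median and highest level of 13.4, 14.4 and 16.1 FPKM in db/db PIO, against 30.4, 35.5 and 69.4 FPKM in db/+ PIO. The db/db PIO libraries were close to each other and less than every db/+ PIO library (log2 fold change -1.39, SE 0.16, limma adjusted p = 1.16e-05). Pdia6, a protein disulphide isomerase named after its values were seen, had 93.4, 117.2 and 142.5 FPKM in 5 db/db PIO libraries, against 201.9, 241.1 and 329.1 FPKM in 5 db/+ PIO libraries (-1.04, SE 0.14, adjusted p = 0.000133). Hspb1, a small heat shock protein of the cytosol, had 24.9, 37.01 and 46.5 FPKM in db/db PIO, against 49.1, 76.1 and 187.9 FPKM in db/+ PIO, without overlap (-1.27, SE 0.27, adjusted p = 0.00436). Derl3, a member of the B and plasma cell list that takes part in the disposal of misfolded ER proteins, was near the floor of the data with 0.03 to 0.43 FPKM in 5 db/db PIO libraries and 0.39 to 1.12 FPKM in db/+ PIO (-0.54, adjusted p = 0.0315, kept in 17 of 24 fits that left out 1 library). No db/db library, with or without drug, reached 1 FPKM for Derl3. It passed the filter on low values only through db/+ libraries, which favoured a fall. Rpn1, a subunit of the oligosaccharyltransferase that was also named after its values were seen, had 44.4 to 49.8 FPKM in db/db PIO and 56.0 to 59.9 FPKM in db/+ PIO, in 4 libraries each (-0.31, adjusted p = 0.008).

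Of 8 heat shock and ER stress genes tested, 2 were lower and none was higher (Hspb1 and Sdf2l1, background 4.18%), with a median of -0.30. Creld2, a further ER stress gene, had 21.1 to 24.7 FPKM in 3 db/db PIO libraries and 22.9 to 55.5 FPKM in 5 db/+ PIO libraries and did not pass (log2 fold change -0.43, adjusted p = 0.281). Hspa5, the master chaperone BiP, had a value in a single db/db PIO library (166.5 FPKM) and in 4 db/+ PIO libraries (271.4 to 537.9 FPKM) and could not be tested. Hsp90b1, Calr, Herpud1 and Ddit3 were listed at 0 in all 12 libraries. The promoters of Pdia6 and Derl3 are printed because they are the only DEGs with a promoter in the table that hold the ER stress response element, CCAAT and CCACG with 9 bases of any kind between them, on either strand, the site at which ATF6 and NF-Y bind (RefSeq, GRCm38.p6, matches in capitals). Pdia6 lies on the plus strand at chr12:17266339-17266638 and Derl3 on the plus strand at chr10:75893148-75893447, where the match is on the opposite strand.
Pdia6: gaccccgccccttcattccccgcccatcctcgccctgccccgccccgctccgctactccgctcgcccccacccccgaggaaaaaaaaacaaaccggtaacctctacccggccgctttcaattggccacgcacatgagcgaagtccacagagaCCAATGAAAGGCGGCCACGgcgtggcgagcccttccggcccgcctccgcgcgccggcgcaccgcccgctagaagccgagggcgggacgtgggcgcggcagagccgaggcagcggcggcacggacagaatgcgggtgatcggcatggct
Derl3: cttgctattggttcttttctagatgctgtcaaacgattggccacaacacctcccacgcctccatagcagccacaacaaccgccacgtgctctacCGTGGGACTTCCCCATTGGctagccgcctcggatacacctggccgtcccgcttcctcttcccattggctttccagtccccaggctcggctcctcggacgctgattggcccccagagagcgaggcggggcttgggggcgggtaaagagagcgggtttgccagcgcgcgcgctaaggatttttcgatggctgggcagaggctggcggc
The match starts at position -98 in Pdia6 and -156 in Derl3. The letters are rare, in 0.119% of all promoters (39 of 32851) and in 4 of 2626 genes tested that have a promoter (Creld2, Derl3, Dnajc3 and Pdia6). These letters are not in the window of the Sdf2l1 promoter.

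Klf15, Klf9 and Ddit4, named for the size of their differences and not as members of a list, were higher in db/db PIO. Klf15, a zinc finger factor that glucocorticoids and fasting induce and that is expressed in podocytes, had 12.2, 12.4 and 14.5 FPKM (lowest, median, highest) in 4 db/db PIO libraries, against 2.51, 3.27 and 4.35 FPKM in db/+ PIO. The db/db PIO values were nearly equal to each other and far above every db/+ PIO value (log2 fold change 1.68, SE 0.20, limma adjusted p = 5.42e-05). Klf9, a further target of the glucocorticoid receptor, had 37.5, 52.8 and 75.0 FPKM in 5 db/db PIO libraries, against 19.97, 24.2 and 29.0 FPKM in 4 db/+ PIO libraries (1.17, SE 0.24, adjusted p = 0.00491). Ddit4, an inhibitor of mTORC1 that hypoxia and glucocorticoids induce, had 21.0, 49.2 and 61.8 FPKM in db/db PIO, against 9.22, 11.6 and 13.9 FPKM in 5 db/+ PIO libraries (1.79, SE 0.33, adjusted p = 0.00166). Irs2, an adaptor of the insulin receptor, had 5.08 to 14.2 FPKM in db/db PIO and 4.39 to 5.82 FPKM in db/+ PIO (0.67, adjusted p = 0.0196), with the highest db/db PIO library, replicate 2, well above the rest. Irs2 was the DEG among 5 insulin and IGF genes tested. Txnip, a glucose-induced inhibitor of thioredoxin, had 409.7 to 575.4 FPKM in 3 db/db PIO libraries and 396.7 to 471.8 FPKM in 5 db/+ PIO libraries and did not pass (0.08, adjusted p = 0.673).

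Of 17 immediate early genes tested, 4 were higher and none was lower (Cyr61, Dusp1, Gadd45b and Zfp36), beside a background of 4.23% higher. The median was 0.24, against -0.03 over all genes. Dusp1, a phosphatase that ends MAP kinase signals, had 127.1 to 206.2 FPKM in 4 db/db PIO libraries and 81.5 to 106.0 FPKM in 5 db/+ PIO libraries (log2 fold change 0.76, limma adjusted p = 0.00751). Gadd45b, a growth arrest protein, had 18.1 to 32.4 FPKM in 5 db/db PIO libraries and 13.9 to 18.5 FPKM in db/+ PIO (0.63, adjusted p = 0.00751). Zfp36, which destabilises cytokine mRNAs, had 40.6 to 63.5 FPKM in db/db PIO and 31.3 to 40.6 FPKM in db/+ PIO, apart by a narrow margin (0.45, adjusted p = 0.0146). Cyr61, a matricellular protein, had 20.5 to 94.2 FPKM in 5 db/db PIO libraries and 15.9 to 29.1 FPKM in db/+ PIO (0.99, adjusted p = 0.0391), and its call was kept in 16 of 24 fits that left out 1 library.

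Among cholesterol genes, those of efflux were higher and those of synthesis mostly showed no difference past the threshold. Of 15 tested, 3 were higher (background 4.23%) and none was lower, with a median of -0.04, close to the -0.03 over all genes. Abca1 and Abcg1 are the transporters that export cholesterol from cells and are targets of the liver X receptor. Abca1 had 5.90 to 6.55 FPKM in 4 db/db PIO libraries and 3.50 to 4.07 FPKM in 3 db/+ PIO libraries (log2 fold change 0.56, SE 0.13, limma adjusted p = 0.0183). Abcg1 had 6.18 to 7.54 FPKM in db/db PIO and 3.33 to 4.62 FPKM in db/+ PIO, in 4 libraries each (0.61, SE 0.12, adjusted p = 0.00436). Sc5d, a late enzyme of synthesis, had 12.2 to 15.1 FPKM in db/db PIO and 8.99 to 10.1 FPKM in db/+ PIO, in 3 libraries each (0.50, adjusted p = 0.0237). The groups of these 3 genes did not overlap, which says little with 3 or 4 values per group.

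Lysosomal and antioxidant genes had members that were higher and none that was lower in db/db PIO. Of 8 lysosomal genes tested, 3 were higher (background 4.23%), with a median of 0.03. Ctsk, the collagen-degrading cathepsin K, had 7.24 to 10.8 FPKM in db/db PIO and 2.36 to 5.38 FPKM in db/+ PIO, in 5 libraries each and without overlap (log2 fold change 1.14, limma adjusted p = 0.00157). Cstb, an inhibitor of cathepsins (0.28, adjusted p = 0.0247), and Npc1, which moves cholesterol out of lysosomes (0.23, adjusted p = 0.0215), changed by less, and their calls were kept in 22 and 21 of 24 fits that left out 1 library. Of 11 antioxidant genes tested, 2 were higher (background 4.23%), with a median of 0.23. Hmox1, haem oxygenase, had 23.95 to 35.8 FPKM in 5 db/db PIO libraries and 14.2 to 18.1 FPKM in 4 db/+ PIO libraries (0.84, adjusted p = 0.00157), and Nqo1, a quinone reductase, had 4.12 to 7.76 FPKM in db/db PIO and 1.69 to 3.29 FPKM in db/+ PIO (0.90, adjusted p = 0.0216).

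**Figure D2:**
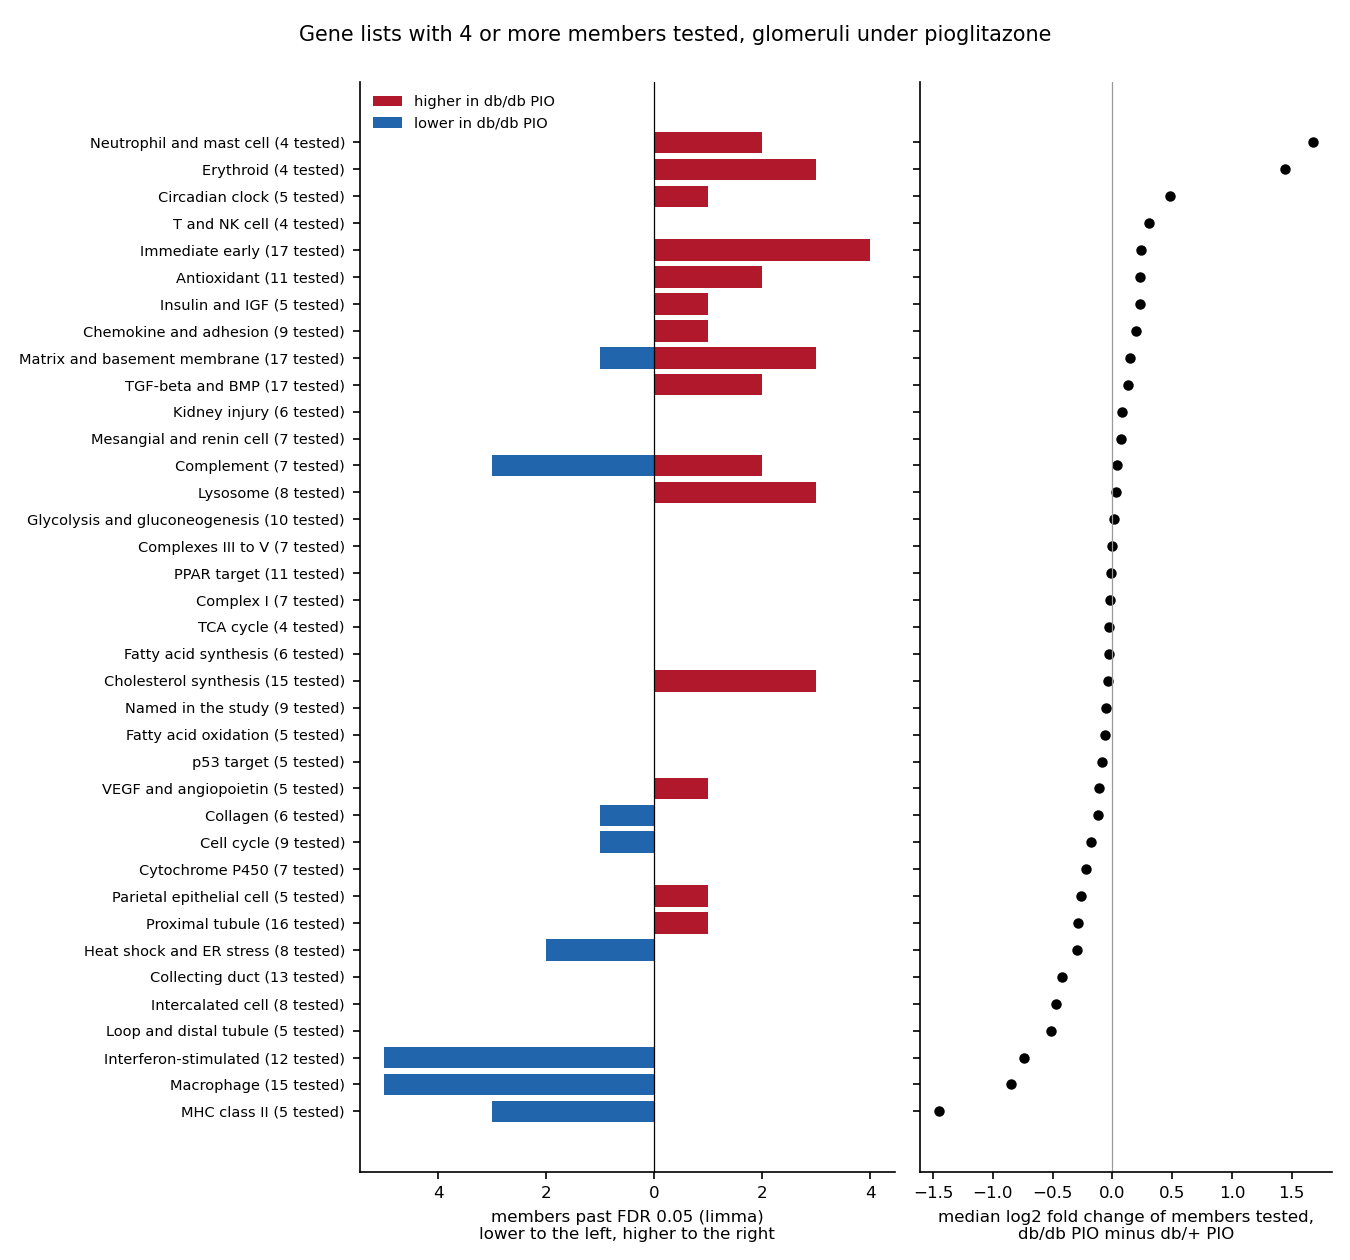
Left, number of members of each gene list past an FDR of 0.05 in glomeruli under pioglitazone, higher in db/db PIO to the right (red) and lower to the left (blue); right, the median log2 fold change of the members tested, db/db PIO minus db/+ PIO. The MHC class II, macrophage and interferon-stimulated lists lie at the bottom with medians of -1.45, -0.85 and -0.74, and the erythroid and neutrophil lists at the top with 1.44 and 1.68.

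Matrix and growth factor genes were changed in both directions. Of 17 matrix and basement membrane genes tested, 3 were higher and 1 was lower (background 4.23% and 4.18%), with a median of 0.15. Loxl1, which crosslinks elastin, had 3.35, 5.40 and 7.29 FPKM in db/db PIO, against 2.18, 2.46 and 3.30 FPKM in db/+ PIO, and the groups met without overlapping (log2 fold change 0.82, SE 0.13, limma adjusted p = 0.000388). The elastic fibre proteins were higher as well: Fbln2 had 6.87 to 9.61 FPKM in 4 db/db PIO libraries and 3.01 to 6.20 FPKM in 5 db/+ PIO libraries (0.80, adjusted p = 0.0176), and Fbln5 had 12.5 to 15.3 FPKM in db/db PIO and 6.02 to 8.95 FPKM in db/+ PIO, in 3 libraries each (0.76, adjusted p = 0.0289). Spon1, a secreted adhesion protein, was lower (-0.45, adjusted p = 0.0464), but its call was kept in only 7 of 24 fits that left out 1 library. Of 6 collagen genes tested, Col15a1 passed. Col15a1, a basement membrane collagen, had 0.99, 1.7 and 4.59 FPKM in 5 db/db PIO libraries, against 7.85, 10.9 and 12.9 FPKM in 5 db/+ PIO libraries, with no overlap (-1.84, SE 0.29, adjusted p = 0.000612). Col3a1, a fibrillar collagen of scar tissue, was low in both groups, with 0.37 to 1.13 FPKM in db/db PIO and 0.35 to 0.89 FPKM in db/+ PIO (-0.01, adjusted p = 0.983).

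Among secreted signals, Bmp2, a bone morphogenetic protein, had 10.8, 14.1 and 19.1 FPKM in the 3 db/db PIO libraries with a value, against 4.52, 4.83 and 6.70 FPKM in 5 db/+ PIO libraries (log2 fold change 1.31, SE 0.19, limma adjusted p = 0.000669). Cxcl12, a chemokine of podocytes and stroma, had 46.5, 63.8 and 73.3 FPKM in 4 db/db PIO libraries, against 22.5, 28.9 and 32.9 FPKM in db/+ PIO, far apart (1.10, SE 0.16, adjusted p = 0.000388). It was the DEG among 9 chemokine and adhesion genes. Angpt2, which antagonises angiopoietin 1 at the endothelial receptor TEK, had 65.7 to 88.2 FPKM in 5 db/db PIO libraries and 36.6 to 57.9 FPKM in 4 db/+ PIO libraries (0.71, adjusted p = 0.0206), and missed the threshold without db/+ PIO 2 or 6. Adm, the vasodilator adrenomedullin, named after its values were seen, had 72.9 to 146.8 FPKM in db/db PIO and 45.1 to 58.7 FPKM in 5 db/+ PIO libraries (1.08, adjusted p = 0.00157). F2r, the thrombin receptor and likewise named after its values were seen, had 299.8 to 385.9 FPKM in 3 db/db PIO libraries and 127.6 to 204.4 FPKM in db/+ PIO (1.03, adjusted p = 0.0182). With each 0 entered as a level, Bmp2, Cxcl12 and F2r turned to -0.22, -0.89 and -3.15, so their rise is a statement about the libraries with a value.

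Complement genes were changed in both directions. Of 7 tested, 3 were lower, all of them C1q chains, and 2 were higher (background 4.18% lower and 4.23% higher). Serping1, the inhibitor of C1, had 57.0 to 73.1 FPKM in db/db PIO and 31.5 to 42.9 FPKM in db/+ PIO, in 5 libraries each (log2 fold change 0.74, limma adjusted p = 0.00272). C1ra, the protease that C1q carries, had 13.5 to 19.1 FPKM in db/db PIO and 7.83 to 10.8 FPKM in db/+ PIO, in 4 libraries each (0.64, adjusted p = 0.0483), a call kept in 10 of 24 fits that left out 1 library. Vwf, the clotting factor of endothelium, had 0.33 to 1.95 FPKM in db/db PIO and 0.27 to 0.54 FPKM in db/+ PIO (0.57, adjusted p = 0.0207, missed without db/db PIO 4). Mcm2, a subunit of the replicative helicase, was the DEG among 9 cell cycle genes and was lower, with 2.17 to 3.07 FPKM in db/db PIO and 3.04 to 4.33 FPKM in db/+ PIO (-0.39, adjusted p = 0.00855), but missed the threshold after quantile normalization (-0.253, adjusted p = 0.141).

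Several of the largest differences belonged to genes of no list. Qrfpr, a receptor for an RFamide peptide, had the largest rise, with 8.77 to 26.3 FPKM in 4 db/db PIO libraries and 1.18 to 3.55 FPKM in 5 db/+ PIO libraries (log2 fold change 2.74, SE 0.37, limma adjusted p = 0.000227). Ajap1, a protein of adherens junctions, had 3.36, 5.06 and 9.06 FPKM in 5 db/db PIO libraries, against 0.31, 0.41 and 0.82 FPKM in db/+ PIO (2.13, SE 0.20, adjusted p = 1.76e-06). Lrtm2, a leucine-rich repeat membrane protein, had 3.26 to 6.22 FPKM in db/db PIO and 0.25 to 0.50 FPKM in db/+ PIO, in 5 libraries each (1.89, SE 0.15, adjusted p = 2.65e-07). The groups of these 3 genes did not overlap. No db/+ library, with or without drug, reached 1 FPKM for Ajap1 or Lrtm2 (at most 0.85 and 0.65 FPKM). Both genes thus passed the filter on low values only through db/db libraries. The filter favoured a rise for Ajap1 and Lrtm2, and their values are a description only. Chi3l1, a chitinase-like protein of injury and inflammation, had 2.14, 3.37 and 5.14 FPKM in db/db PIO, against 0.09, 0.28 and 0.82 FPKM in 5 db/+ PIO libraries (1.72, adjusted p = 1.77e-05). No db/+ PIO library reached 1 FPKM for Chi3l1, so the filter favoured a rise here as well. The same rule named Wfdc1 (1.53), LOC100504681 (1.58), Rtn4rl2 (1.51) and Tal2 (1.5) among the 15 largest rises.

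On the falling side, Steap4, a metalloreductase of iron and copper uptake, had 1.58, 1.88 and 2.34 FPKM in db/db PIO, against 5.66, 6.77 and 9.85 FPKM in db/+ PIO (log2 fold change -1.45, SE 0.18, limma adjusted p = 1.16e-05). Among the 15 largest rises and 15 largest falls, Steap4 and Chi3l1 also passed with each 0 entered as a level. Tiam1, an activator of the GTPase RAC1, had 0.94 to 4.27 FPKM in db/db PIO and 4.73 to 10.04 FPKM in 5 db/+ PIO libraries (-1.37, adjusted p = 0.0154). LOC100503611, an unannotated symbol, had 1.79 to 2.76 FPKM in db/db PIO and 5.87 to 11.7 FPKM in db/+ PIO (-1.57, adjusted p = 2.76e-06). The rest of the 15 largest falls were Ugt2b38 (-1.57), Ces5 (-1.52), Hist1h4m (-1.45) and Snord22 (-1.41), beside the genes already described. Ugt2b38 and Hist1h4m belong to families of near-identical copies and are uncertain for that reason, and the calls of Ugt2b38, Hist1h4m and Snord22 were kept in 19, 17 and 15 of 24 fits that left out 1 library. Cebpa, a factor of adipocyte and myeloid differentiation named after its values were seen, had 7.70 to 12.1 FPKM in db/db PIO and 4.62 to 6.64 FPKM in db/+ PIO, without overlap (0.67, adjusted p = 0.000674).

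Lists of glomerular cells and of energy metabolism had few or no DEGs. None of 3 podocyte genes tested (of 32 listed), none of 7 mesangial and renin cell genes and 1 of 3 endothelial genes (Vwf) passed. Podxl had a median of 2274 FPKM in db/db PIO and 2309 FPKM in db/+ PIO (log2 fold change -0.08, SE 0.13, limma adjusted p = 0.74). No member passed among 11 PPAR target genes, 5 of fatty acid oxidation, 6 of fatty acid synthesis, 10 of glycolysis and gluconeogenesis, 4 of the TCA cycle, 7 of respiratory complex I and 7 of complexes III to V, with medians of -0.06 to 0.01. Pdk4, a PPAR target that limits pyruvate oxidation, had 1.88 to 4.68 FPKM in db/db PIO and 2.88 to 6.51 FPKM in db/+ PIO (-0.57, adjusted p = 0.0765). A value that missed the threshold does not show that the groups were equal, and only 4 to 11 members of each metabolic list could be tested.

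Glomerular preparations hold some tubule, whose genes were measured with the rest. Of 13 collecting duct genes, 8 intercalated cell genes and 5 loop and distal tubule genes tested, none passed, with medians of -0.42, -0.47 and -0.51, and 25 of these 26 values were below 0. Cdh1, E-cadherin, had 0.41, 3.42 and 10.01 FPKM in db/db PIO, against 1.76, 7.35 and 13.0 FPKM in db/+ PIO, with wide overlap (log2 fold change -0.66, SE 0.51, limma adjusted p = 0.466). Krt19, a keratin, had 0.04 to 0.22 FPKM in db/db PIO and 0.04 to 0.46 FPKM in db/+ PIO (-0.05, SE 0.15, adjusted p = 0.894). The sum of 6 collecting duct genes was 1.48 to 30.8 FPKM in db/db PIO and 6.20 to 38.3 FPKM in db/+ PIO (p = 0.279, exact permutation test, n = 6 each). For the loop and distal tubule list a single gene had a value in every library, Emx1, with 0.07 to 2.2 FPKM in db/db PIO and 0.45 to 3.44 FPKM in db/+ PIO (p = 0.156, exact permutation test), whereas the sum of the list as deposited, zeros included, was 17.6 to 47.0 FPKM in db/db PIO and 41.3 to 225.8 FPKM in db/+ PIO (p = 0.00433, exact permutation test). Of 16 proximal tubule genes tested, Slc16a9, a carnitine transporter, was the DEG and was higher, with 0.99 to 3.50 FPKM in 5 db/db PIO libraries and 0.18 to 0.73 FPKM in db/+ PIO (1.22, limma adjusted p = 0.00121). It ran against its list, in which 13 of the 16 values were below 0 and the median was -0.29.

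The difference between genotypes was then set beside that without drug, whose fold changes came from the untreated glomerular libraries. Those libraries had already entered the filter on low values and the variance estimate of the shared fit, so the comparison is not fully separate. Without pioglitazone, 1069 of 4210 genes tested (25.4%) were DEGs, 694 higher and 375 lower in db/db. Of the 164 genes higher under pioglitazone that were tested in both, 89 were also higher without it (54.3% of them, and 13.8% of the 645 higher without drug). Of the 155 lower genes, 78 were also lower (50.3%, and 23.7% of 329). The sign was shared by 86.6% of the higher genes, beside 56.6% above 0 among all 3563 genes tested in both, and by 78.1% of the lower genes, beside 43.4%. Several of the genes described had fold changes of like size in both: Sdf2l1 had a log2 fold change of -1.39 with and -1.49 without pioglitazone, and in the same order Pdia6 had -1.04 and -1.04, Hspb1 -1.27 and -1.45, Steap4 -1.45 and -1.78, Usp18 -0.94 and -1.06, Hba-a1 2.03 and 2.36, Qrfpr 2.74 and 2.87, Ajap1 2.13 and 2.28 and Klf15 1.68 and 1.41. Other large rises were smaller without drug: S100a8 had 2.64 with and 1.10 without pioglitazone, Lrtm2 1.89 and 1.36 and Rtn4rl2 1.51 and 0.49. None of these 12 genes passed the test of the difference between both fold changes, which gave limma adjusted p = 0.182 for S100a8, 0.127 for Lrtm2 and 0.0747 for Rtn4rl2. Ajap1 and Lrtm2 passed the filter on low values only through db/db libraries, which favoured a rise in both comparisons.

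That test, the genotype difference with minus without pioglitazone, passed for 346 of 3563 genes (9.71%), 61 positive (1.71%) and 285 negative (8%). Its balance depended on scaling: median-of-ratios rescaling gave 186 positive and 248 negative, and quantile normalization gave 350 and 216 with a shift of the median over all genes, which was -0.06 as deposited and 0.14 after it. Without db/+ replicate 2, an untreated library, 626 genes passed (118 positive and 508 negative). The macrophage genes stood on the negative side, with 5 of 11 tested past the threshold and none positive. C1qb was lower in db/db PIO than in db/+ PIO but higher in db/db than in db/+ without drug (log2 fold change 1.24, limma adjusted p = 0.023), and the difference was -2.90 (SE 0.52, adjusted p = 0.0019). C1qa (-2.56, adjusted p = 0.016), Ly86 (-1.88, adjusted p = 0.016), Mmp12 (-1.51, adjusted p = 0.0092), Lyz1 (-1.09, adjusted p = 0.038) and H2-Aa (-2.34, adjusted p = 0.0069) passed as well, while no interferon-stimulated gene of 11 tested did. Ly86 is not a member of the macrophage list. Mmp12 was at most 0.40 FPKM in db/db PIO and 0.69 FPKM in untreated db/+. It passed the filter on low values only through db/+ PIO and untreated db/db libraries. The filter thus favoured a negative difference for Mmp12, and its value is a description only.

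Tubular genes made up most of the largest negative values, and they were high in untreated db/db glomeruli. In untreated libraries 10 of 10 collecting duct genes tested were higher in db/db, beside 16.5% of all genes tested there. The test of the difference passed with a negative value for 9 of 10, beside 8% of all genes tested for it. Cdh1 had a log2 fold change of 2.95 without drug and a difference of -3.61 (SE 0.78, limma adjusted p = 0.0061), Cldn4, a tight junction protein, -3.89 (SE 0.81, adjusted p = 0.0046) and Krt19 -2.0 (SE 0.22, adjusted p = 1.3e-05). Grem1, a BMP antagonist of fibrosis, had 0.03 to 0.21 FPKM in db/db PIO and 0.03 to 0.29 FPKM in db/+ PIO but rose in untreated db/db (3.02), with a difference of -3.03 (limma adjusted p = 0.0032). Krt19 and Grem1 passed the filter on low values only through untreated db/db libraries, at 2.46 to 7.44 and 2.49 to 42.5 FPKM. The filter thus favoured a negative difference for both genes, and their values are a description only. The 5 largest negative differences by the naming rule were S100g (-4.67), 1600029D21Rik (-4.03), Adh1 (-4.02), Tmem213 (-3.89) and Cldn4, and the collecting duct list had the same direction. The part of tubule in the preparations was not tested. The 5 largest positive differences were Angptl7, 2010109K11Rik, Klf9, Slc16a9 and Nkain4. Angptl7, a secreted angiopoietin-like protein, had 1.65, 2.55 and 6.76 FPKM in db/db PIO, against 0.69, 0.92 and 1.3 FPKM in db/+ PIO (1.01, adjusted p = 0.00443), was lower in db/db without drug (-0.67, adjusted p = 0.025), and had a difference of 1.68 (SE 0.31, adjusted p = 0.0016). Klf9 had a fold change of -0.23 without drug and a difference of 1.40 (SE 0.33, adjusted p = 0.011).

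**Figure D3:**
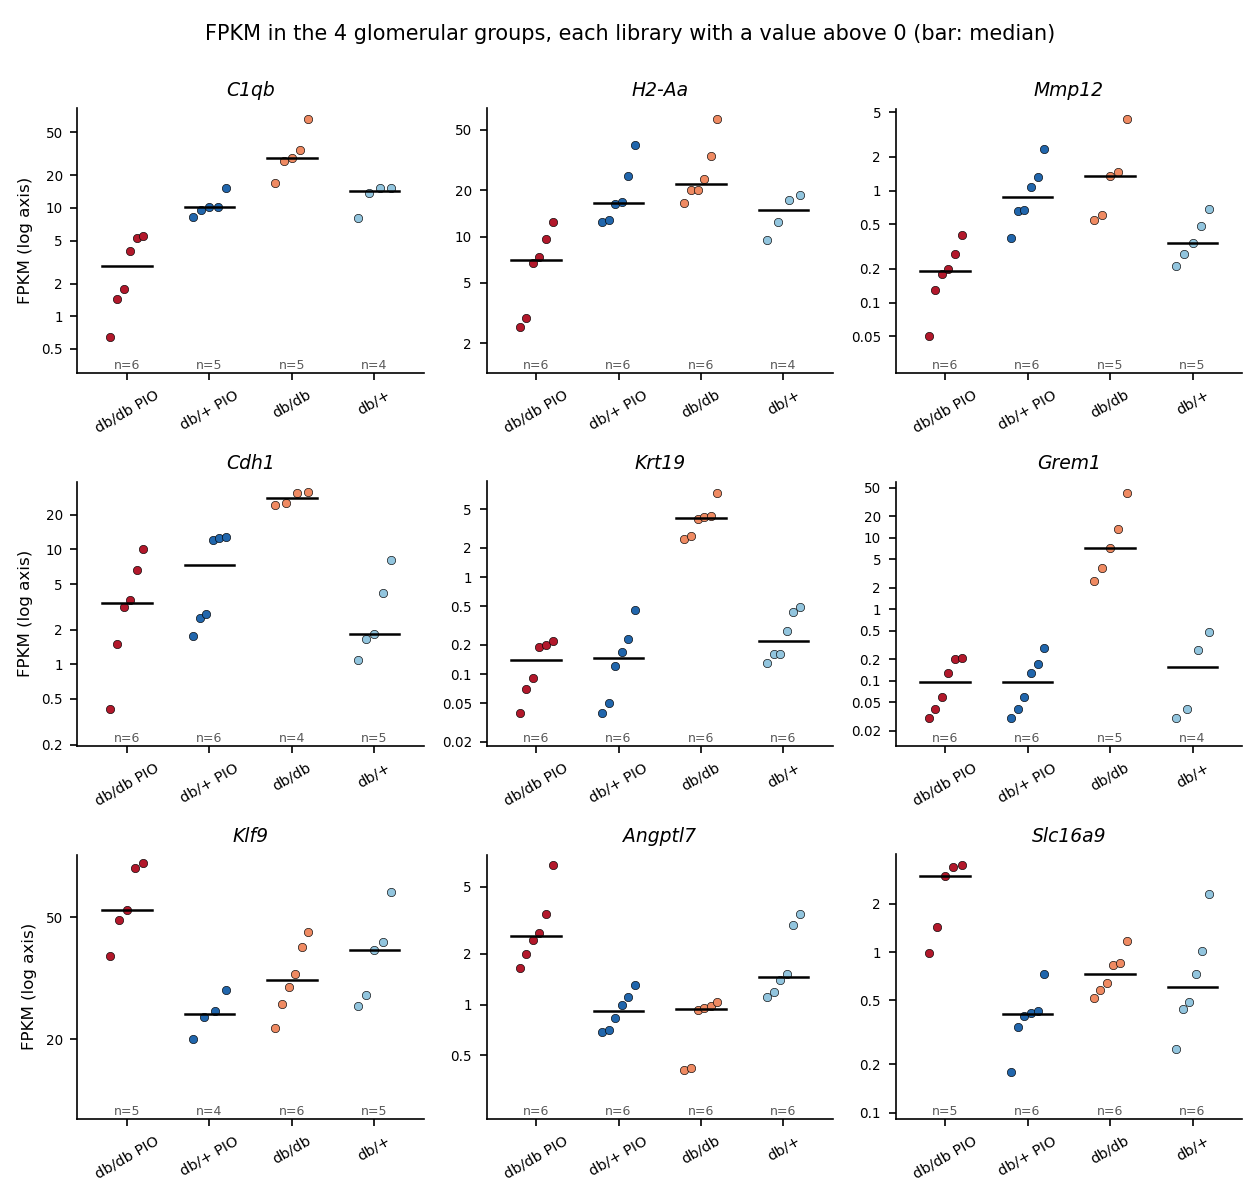
FPKM (log axis) of 9 genes in each glomerular library with a value above 0, in db/db PIO, db/+ PIO, db/db and db/+; bars mark medians and n the libraries with a value. By medians, Cdh1, Krt19 and Grem1 were highest in db/db, C1qb and H2-Aa were lowest in db/db PIO, and Klf9, Angptl7 and Slc16a9 were highest in db/db PIO, where Angptl7 lay at 1.65 to 6.76 FPKM. Krt19 and Grem1 passed the filter on low values only through db/db libraries, and Mmp12 only through db/db and db/+ PIO libraries.

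The cortex of pioglitazone-fed mice gave a second comparison with other libraries. There, 761 of 3865 genes tested (19.7%) were DEGs between db/db PIO and db/+ PIO, 274 higher (7.09%) and 487 lower (12.6%). Of 103 genes lower in glomeruli and tested in both tissues, 45 were lower in cortex (43.7% of them, and 13.8% of 325), and of 104 higher genes 13 were higher (12.5%, and 8.6% of 151). Over all members tested in cortex, 15 of 17 macrophage genes, 3 of 3 MHC class II genes and 13 of 15 interferon-stimulated genes were lower in db/db PIO there, beside 12.6% of all genes. C1qa had a log2 fold change of -1.97 in glomeruli and -1.33 in cortex, H2-Aa -1.48 and -1.55, Oas1a -1.33 and -1.19, Usp18 -0.94 and -1.06, Ifi27l2a -2.88 and -2.29, and Sdf2l1 -1.39 and -1.62. None of these 6 genes passed the test of the difference between tissues. Cortex surrounds the glomeruli, so both tissues can hold the same interstitial cells. Same-numbered glomerular and cortex libraries may also come from the same mouse, which the labels do not state, and the test treated them as separate.

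The difference between tissues passed for 297 of 2460 genes (12.1%), 176 positive (7.15%) and 121 negative (4.92%), and for 49 of the 104 higher and 19 of the 103 lower glomerular DEGs. Quantile normalization gave 244 positive and 83 negative. Cpe, carboxypeptidase E of peptide hormone processing, had 11.8, 19.6 and 28.3 FPKM in db/db PIO glomeruli, against 6.73, 9.30 and 10.9 FPKM in db/+ PIO glomeruli, without overlap, and was lower in cortex (log2 fold change 1.01 in glomeruli and -2.50 in cortex, difference 3.51, SE 0.26, limma adjusted p = 5.3e-09). A130040M12Rik, Stbd1, Frzb and Angptl7 followed, with differences of 2.69, 2.41, 2.28 and 1.92, and Stbd1 and Frzb did not differ past the threshold within glomeruli (0.35 and 0.29). Hmox1 (0.84 in glomeruli, -0.71 in cortex, difference 1.56, adjusted p = 0.00041), Ctsk (difference 1.42), Adm (1.15), Loxl1 (1.09), Wfdc1 (1.19), Cxcl12 (0.80) and Abcg1 (0.81) were past the threshold with a positive difference. Fgl2, a secreted prothrombinase and immune regulator named after its values were seen, had 32.8 to 42.4 FPKM in 4 db/db PIO libraries and 11.6 to 15.7 FPKM in 5 db/+ PIO libraries, log2 fold changes of 1.47 in glomeruli (SE 0.10, limma adjusted p = 1.74e-07) and -0.14 in cortex, and a difference of 1.61. On the negative side were 2210023G05Rik (-2.66), Ces5 (-1.97), Cotl1 (-1.75), Plk3 (-1.60) and Guca2a (-1.59).

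**Figure D4:**
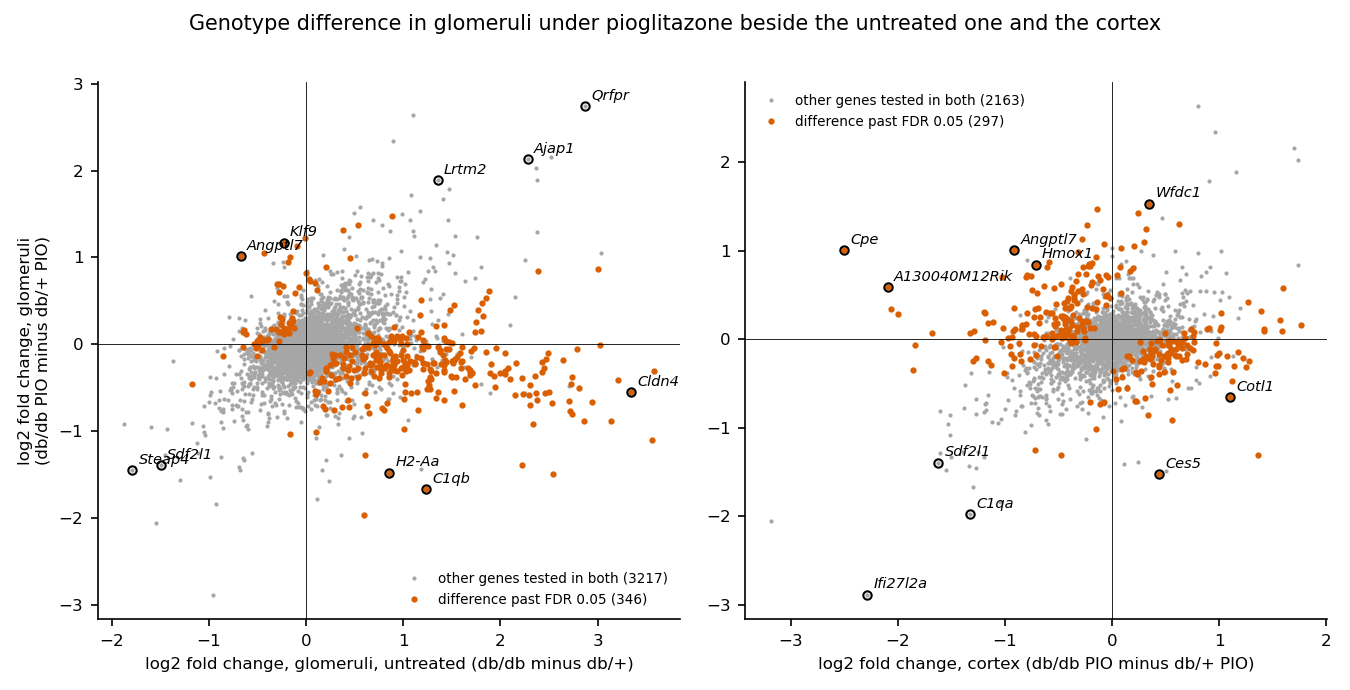
Log2 fold change in glomeruli under pioglitazone (db/db PIO minus db/+ PIO, vertical axis) against that in glomeruli without drug (left, 3563 genes) and in cortex under pioglitazone (right, 2460 genes); each point is a gene and orange marks genes whose 2 fold changes differed past an FDR of 0.05 (346 and 297). C1qb and H2-Aa lie below 0 under pioglitazone and above 0 without it, Sdf2l1 lies below 0 on each axis, and Cpe lies above 0 in glomeruli and below 0 in cortex.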

How the data were processed

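The authors prepared libraries from frozen tissue with an Illumina TruSeq mRNA kit, mapped reads to the NCBI 37 (mm9) mouse transcriptome by TopHat with Bowtie and calculated FPKM with Cufflinks. The sources used here give no program versions. The deposited files hold an FPKM per gene symbol and library. Read totals were not used here, so the precision of a value rests on the spread between libraries. The authors called DEGs with Cuffdiff, which needs aligned reads and could not be repeated from FPKM.

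Values were used as deposited on the log2(FPKM + 1) scale, with a pseudocount of 1, which understates the change of genes at low levels. An entry of 0 was read as missing. A gene was kept if 5 or more of the 24 glomerular libraries had an FPKM of 1 or more (7041 symbols) and tested if each compared group had at least 3 values, which left 2786 untested. limma 3.58.1 in R 4.3.3 was fitted to the 4 glomerular groups together, with moderated variances, an intensity trend and Benjamini-Hochberg adjustment over all genes tested. The difference between tissues used the 24 PIO libraries of glomeruli and cortex. Single sums were compared with two-sided exact permutation tests in Python 3.11.15 (scipy 1.17.1). Replicates are libraries that the labels number within a group. The limma fit was tested on simulated data.

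Genes named are members of 44 gene lists, the 15 DEGs that rose most and the 15 that fell most, provided that leaving out any 1 of the 12 libraries kept their sign, and the 5 largest values in each direction for both difference tests. Genes outside this rule are marked as named after their values were seen. Some genes that meet the rule are not reported here. The comparison and the lists were chosen with earlier results of these data known. Gene coordinates are those of gencode vM1 (mm9), and promoters are RefSeq windows of GRCm38.p6. Alternatives were another pseudocount, filter, scaling, minimum number of values, zeros as levels, array weights, a replicate block, the PIO groups alone and leaving out each library.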

Additional observations from a re-analysis of the deposited data

Results flagged for a closer look

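Single libraries stood apart from the others of their group in 17 of 251 groups of values examined, by a rule that chance meets in about 1 in 20 groups. In db/+ PIO replicate 2, C1qa was 25.18 FPKM beside 5.93 to 10.54 in the others, H2-Eb1 was 49.45 FPKM beside 14.73 to 20.35, Chi3l1 was 0.82 FPKM beside 0.09 to 0.3, and the sum of 6 macrophage genes (Cd14, C1qa, Lyz1, Cd163, Cx3cr1 and Mmp12) was 45.77 FPKM beside 17.53 to 27.06. C1qa kept its call without that library, and H2-Eb1 did not. In db/+ PIO replicate 1, C1qb was 15.33 FPKM beside 8.29 to 10.3 and LOC100504681 was 8.27 FPKM beside 5.59 to 6.02. Frzb was 5.22 FPKM in db/+ PIO replicate 3 beside 2.58 to 3.55, Steap4 was 9.85 FPKM in replicate 4 beside 5.66 to 7.12, and Cd14 was 5.63 FPKM in replicate 5 beside 9.39 to 11.08.

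In db/db PIO the macrophage sum was lowest in replicate 4, with 13.94 FPKM beside 16.19 to 17.37, while Klf15 was highest there, with 14.5 FPKM beside 12.17 to 12.38. Podxl, and with it the podocyte sum, was 2724.12 FPKM in replicate 3 beside 2058.43 to 2278.77. Rsad2 was 12.89 FPKM in replicate 1 beside 4.57 to 5.24, Irs2 was 14.2 FPKM in replicate 2 beside 5.08 to 8.32, LOC100503611 was 2.76 FPKM in replicate 2 beside 1.79 to 2.05, and Angptl7 was 6.76 FPKM in replicate 6 beside 1.65 to 3.47.

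The difference between genotypes was itself different with and without PIO for genes in the text, by limma at an FDR of 0.05 (log2 scale, with minus without). Macrophage genes were negative: C1qb -2.9, C1qa -2.56, Mmp12 -1.51 and Lyz1 -1.09. Ly86, a gene of B cells and myeloid cells outside the macrophage list, was negative too (-1.88). Epithelial genes were negative: S100g -4.67, Adh1 -4.02, Cldn4 -3.89, Tmem213 -3.89, Epcam -3.63, Cdh1 -3.61, Krt18 -3.36, Krt8 -3.02, Guca2a -2.21 and Krt19 -2.0. H2-Aa, the 1 of 5 MHC class II genes tested that passed, was negative (-2.34). Grem1 (-3.03), 1600029D21Rik (-4.03) and Mcm2 (-0.731) were negative too. Grem1 and Krt19 passed the filter on low values only through untreated db/db libraries, which favoured this sign. Mmp12 passed it only through untreated db/db and db/+ PIO libraries, which favoured this sign as well. Positive values were those of Angptl7 (1.68), 2010109K11Rik (1.48), Klf9 (1.4), Slc16a9 (1.23), Nkain4 (1.22), A130040M12Rik (0.703) and Fgl2 (0.585).

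It was also different between glomeruli and cortex under PIO (glomeruli minus cortex). Positive values belonged to Cpe (3.51), A130040M12Rik (2.69), Stbd1 (2.41), Frzb (2.28), Angptl7 (1.92), Fgl2 (1.61), Hmox1 (1.56), Angpt2 (1.52), Ctsk (1.42), Cyr61 (1.31), Wfdc1 (1.19), Col3a1 (1.17), Adm (1.15), Loxl1 (1.09), Serping1 (0.982), F2r (0.949), 2010109K11Rik (0.852), C1ra (0.834), Abcg1 (0.809), Cxcl12 (0.803), Cebpa (0.789) and Cd14 (0.746). Negative values belonged to 2210023G05Rik (-2.66), Ces5 (-1.97), Cotl1 (-1.75), Plk3 (-1.6), Guca2a (-1.59) and Mcm2 (-0.618).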

How the results depend on the processing

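The treatment of zeros set the number of calls more than any other alternative tried. With each 0 entered as a value of 0, 11 of 7041 genes passed in glomeruli under pioglitazone, against 358 of 4255 with zeros as missing. Under that setting 2 of the 30 genes named for their size (Chi3l1 and Steap4) and 1 member of the gene lists (against 49 of 301 tested) passed, as did 29 genes for the difference with minus without PIO and 11 for glomeruli minus cortex. Of the 358 DEGs, 303 kept their sign there and 55 had the opposite one. Among the genes named, the log2 fold change turned to -0.224 for Bmp2, -0.0256 for Cldn1, -0.886 for Cxcl12, -0.59 for Dusp1, -0.161 for Gadd45b, -0.392 for Npc1 and -3.15 for F2r, and the difference between tissues to -0.367 for Stbd1 and -0.642 for Frzb. Each of these genes had entries at 0 among the compared libraries. Fewer genes were tested where more values were required. With at least 5 values per group, 226 genes passed (184 for the difference with minus without PIO, 132 for glomeruli minus cortex), and all 213 DEGs still tested were kept. With a value in all 6 libraries of each compared group, an alternative chosen after seeing the data, 116 of 1062 genes passed, 110 of them DEGs of the wider fit, with 14 of the 30 named genes, 19 list members, and 72 and 68 genes for the difference tests. A fold change of at least 1.5 left 209 DEGs. Quantile normalization gave 566 and array weights 673 genes for the difference with minus without PIO, and no filter on low values gave 537 for glomeruli minus cortex; the cause was not tested.

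Leaving out each library in turn gave 278 to 400 DEGs, 24 to 30 of the 30 named genes and 34 to 54 list members. For the difference with minus without PIO the range was 248 to 626, with the highest value without the untreated db/+ replicate 2, and for glomeruli minus cortex it was 217 to 314. Of 76 DEGs followed through these fits, 53 were kept in every one. The 76 do not include Klf9, Angptl7, Cpe, Cotl1 and 4 further DEGs that were named for a difference test. The least stable of the 76 were Spon1, C1ra, Rsad2 and Tyrobp, kept in 7, 10, 11 and 13 of 24 fits. The replicate numbers are shared between the groups, but same-numbered db/db PIO and db/+ PIO glomerular libraries did not deviate together (correlations of -0.352 to 0.367). Between glomeruli and cortex all 12 such correlations were above 0 (0.00284 to 0.326), but not each was over 0.1. The numbers were not taken as pairs in either test. Any pairing of glomeruli with cortex was thus ignored by the main fit of the difference between tissues. With a replicate block 368 genes passed (366 and 254 for the difference tests), of which 296 were DEGs without it. Among the 76, Snord22, Cyr61, Derl3, Fbln5, Npc1 and Sc5d missed the threshold with the block. After quantile normalization H2-Ab1, C1qc, Derl3, Fcer1g, Mcm2, Rsad2, Spon1, Tyrobp and Rpn1 missed it, and with the PIO groups alone Hist1h4m, Cldn1, Cyr61, Fcer1g, Npc1 and Spon1 did.

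The number of DEGs was 361 with a pseudocount of 0.1, 370 without the trend, 382 with the PIO groups alone, 365 with median-of-ratios rescaling and 396 without the filter. Depth per library is unknown, and 2786 of the 7041 symbols passing the filter had too few values to be tested. With 6 libraries per group, and as few as 3 values for some genes, differences that missed the threshold are not shown to be absent.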

Other observations

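Bnip3, a mitochondrial protein that hypoxia induces, was higher in db/db PIO glomeruli, with 25.6 to 34.2 FPKM in 5 db/db PIO libraries and 18.5 to 22.01 FPKM in 5 db/+ PIO libraries (log2 fold change 0.54, limma adjusted p = 0.0221), and missed the threshold without db/+ PIO 6. Prdm1, a transcriptional repressor that drives plasma cell differentiation, was lower, with 0.44 to 1.41 FPKM in db/db PIO and 1.02 to 4.16 FPKM in db/+ PIO (-0.89, adjusted p = 0.0195), and missed it without db/+ PIO 1. Cldn1, a tight junction protein of the parietal epithelium, was higher, with 5.55 to 11.5 FPKM in 5 db/db PIO libraries and 4.67 to 6.97 FPKM in db/+ PIO (0.51, limma adjusted p = 0.0289), a call kept in 19 of 24 fits that left out 1 library. It ran against its list, in which 4 of 5 parietal epithelial genes tested were below 0 and the median was -0.26. Bnip3 and Prdm1 were named after their values were seen.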
